A study of Mus musculus with 6 samples.

Results

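Enzymes of leucine, isoleucine and valine breakdown were followed as transcripts in fat of wild-type and Prmt5 knockout mice. Their 10 genes were chosen by name, Bcat2, Bckdha, Bckdhb, Dbt, Ivd, Mccc1, Mccc2, Auh, Hibch and Hibadh, and all 10 were among the 14291 genes of the deposited table. The series measured polyA-selected RNA by sequencing in tissue labelled epididymal white adipose tissue, the visceral fat depot beside the epididymis. There were 3 libraries from wild-type mice, which carried floxed Prmt5 alleles (Prmt5flox/flox), and 3 from Prmt5 knockout mice (Prmt5AKO). PRMT5 is an arginine methyltransferase that dimethylates arginine symmetrically in many proteins, histones among them. The labels do not expand AKO, and they give no Cre driver, strain, age, diet or treatment for either group. They do not say that the libraries of a genotype came from separate animals, so the p-values here measure the spread between libraries, which may be technical. The comparison asks how transcripts of this pathway differ between wild-type and knockout fat.

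Branched-chain amino acids are broken down in mitochondria. A transaminase (Bcat2) first turns them into keto acids, and the branched-chain keto acid dehydrogenase complex (BCKDH: Bckdha, Bckdhb and Dbt, with the shared subunit Dld) commits them to oxidation. Leucine then passes through Ivd, the carboxylase made of Mccc1 and Mccc2, and Auh to acetyl-CoA and acetoacetate, while valine passes through Hibch and Hibadh towards propionyl-CoA. Mature adipocytes are known to use this pathway as a source of acetyl-CoA for fat synthesis, and it becomes more active as adipocytes differentiate.

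Total counts ran from 17489530 to 26403882 per library. Levels are CPM, counts scaled to library size with TMM factors, and RPKM, CPM divided by exonic length, where genes are compared with each other. A mean ± SD covers 3 libraries, with wild type first. The targeted gene was lower in every knockout library: Prmt5 had 37.5, 59.9 and 40.8 CPM across wild-type replicates 1 to 3, against 14.8, 22.4 and 28.5 CPM across knockout replicates 1 to 3 (log2 fold change -1.07, SE 0.34, adjusted p = 0.467, edgeR). The knockout mean was 47.5% of wild type, so the transcript was reduced but still present in this tissue. Adipocyte transcripts were abundant in all 6 libraries, with Adipoq at 3351 to 5513 CPM. The long noncoding RNA Xist, transcribed from the inactive X chromosome of female cells, was counted in all 6 libraries, at 509.7 to 1044 CPM in wild-type replicates 1 and 3 and knockout replicate 1 and at 45.6 to 106.1 CPM in the other 3. None of 4 listed Y-linked genes was matched in the table. An epididymal depot is male tissue, so these counts go against the label in all 6 libraries, and no result can be given without such libraries. The same 3 libraries with high Xist stood on one side of the first principal component (61.8% of the variance of log2 CPM, scores -78.2 to -45.7 against 27.3 to 85). The deposited fold changes were matched by an edgeR fit with a 2-level batch term that parts replicate 1 of both genotypes from replicates 2 and 3. The submitters' name for the table holds the word batch, and the sources used here do not say what this grouping was. Values of that fit are drawn for all members and for the other genes of the pathway, and the text gives them for some genes beside those with genotype as the only term. For Prmt5 that fit gave -1.10 (SE 0.24, adjusted p = 0.0913, edgeR).

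Hibch was the member furthest from no difference, at about 52.4% of its wild-type level in the knockout, and Bcat2 had the highest fold change of the 10 with genotype only, at 161% of wild type. No member passed the threshold, an adjusted p under 0.05 over all genes. The edgeR fit with genotype only called 0 of 10 members, where 0% of all genes were called, and at an unadjusted p under 0.05 it held 1 member, Hibch, where 8.63% of all genes had such a p. The batch-term fit also called 0 of 10 (0.504% of all genes), with Hibch and Bcat2 at an unadjusted p under 0.05 (24.5% of all genes). DESeq2 called 0 of 10 (1.9% of all genes), limma-voom 0 of 10 (0%) and edgeR with length and GC offsets, fitted by library against exonic length and base composition, 0 of 10 (0.123%). Of the 10 members 6 lay above 0, with a median log2 fold change of 0.23, and over all genes 49% lay above 0 with a median of -0.016. Genotypes did not overlap for 1 of 10 members, Hibch, where 14.5% of all genes had no overlap, so that this share is near the background. In RNA from whole tissue, fewer cells of a type and less RNA per cell cannot be told apart.

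**Figure D1:**
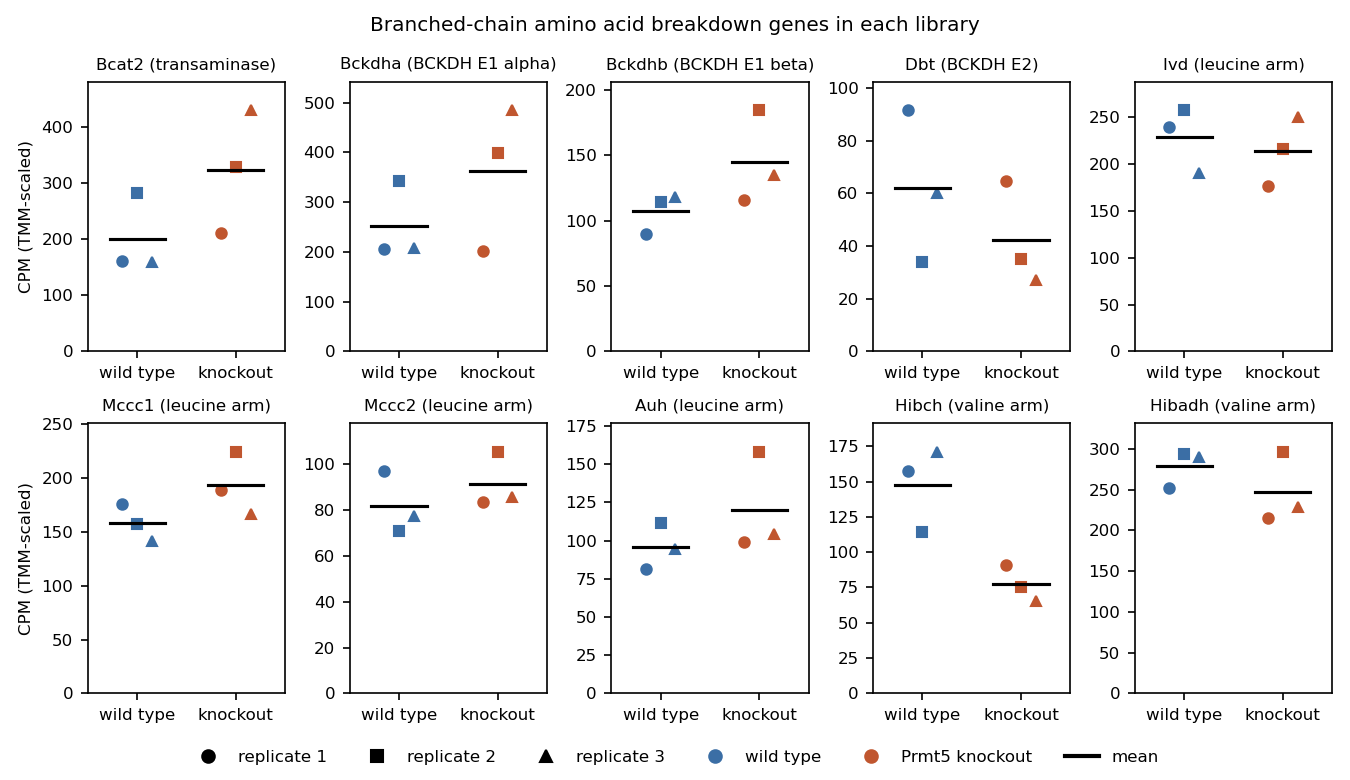
TMM-scaled CPM (vertical axes, from 0) of the 10 members in each library, with wild type in blue, knockout in orange, a marker shape for each replicate number and a black line at the mean of 3 libraries. Hibch is the member whose genotypes do not overlap, at 114 to 170.6 CPM in wild type and 65.4 to 91.1 CPM in knockout.

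The pathway opens with Bcat2, the mitochondrial branched-chain aminotransferase (chromosome 7, 45570153 to 45589710, mm10, plus strand). It had 160.8, 282.7 and 159.8 CPM across wild-type replicates 1 to 3, against 210.6, 328.2 and 429.7 CPM across knockout replicates 1 to 3, the order kept for the genes that follow. Wild-type replicate 2 lay above knockout replicate 1, so the genotypes overlapped. The means of 201.1 ± 70.7 and 322.9 ± 109.6 CPM differed by 1.61-fold, with a log2 fold change of 0.68 (SE 0.38, 95% interval -0.19 to 1.56, adjusted p = 0.593, edgeR). With the batch term the estimate was 0.65 (SE 0.27, adjusted p = 0.192, edgeR), with 0.39 between the replicate 1 libraries and 0.82 within replicates 2 and 3. Without knockout replicate 3 the genotype-only value was 0.42. Exons of Bcat2 overlap the antisense gene 0610005C13Rik, which stood at 0.186 to 1.04 CPM. The sources used here do not say whether counting used strand, so reads from such a pair cannot be told apart.

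The 3 subunit genes of BCKDH did not share a direction with genotype only, whereas with length and GC offsets all 3 lay above 0, Bckdha at 0.10, Bckdhb at 0.40 and Dbt at 0.081. Bckdha, the alpha subunit of the decarboxylase that carries the regulated phosphorylation sites, stood at 206.3, 341.8 and 208.6 CPM in wild type and at 201.9, 399.5 and 484.4 CPM in knockout. Knockout replicate 1 was the lowest of the 6 libraries and knockout replicate 3 the highest. Its log2 fold change was 0.52 (SE 0.40, 95% interval -0.40 to 1.44, adjusted p = 0.624, edgeR), and 0.45 with the batch term, made up of -0.031 in the replicate 1 libraries and 0.72 within replicates 2 and 3. Leaving out knockout replicate 3 gave 0.25, and leaving out knockout replicate 1 or wild-type replicate 2 gave 0.80. Bckdha (chromosome 7, 25629852 to 25658761, minus strand) lies beside B3gnt8 on the other strand (25627624 to 25629490), a gene at 6.50 to 13.7 CPM. Their deposited spans do not overlap.

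Bckdhb, the beta subunit of the same decarboxylase (chromosome 9, 83925137 to 84124240), stood at 89.6, 114.1 and 117.9 CPM in wild type and at 115.9, 184.2 and 134.8 CPM in knockout. Only knockout replicate 1 fell inside the wild-type range. Its log2 fold change was 0.44 (SE 0.28, 95% interval -0.21 to 1.08, adjusted p = 0.609, edgeR), and 0.37 and 0.44 in the replicate 1 libraries and within replicates 2 and 3. It was 0.23 without knockout replicate 2. Dbt, the transacylase core that carries the lipoyl group (chromosome 3, 116513079 to 116549981), stood at 91.6, 34.0 and 60.2 CPM in wild type and at 64.6, 35.2 and 27.2 CPM in knockout. The spread within each genotype, an SD of 46.6% of the mean in both, was wider than the difference between the means. Its log2 fold change was -0.55 (SE 0.46, 95% interval -1.61 to 0.51, adjusted p = 0.643, edgeR), and -0.56 (SE 0.26, adjusted p = 0.22, edgeR) with the batch term. Single libraries moved the genotype-only value, to -0.15 without wild-type replicate 1, -0.31 without knockout replicate 3, -0.84 without wild-type replicate 2 and -0.98 without knockout replicate 1.

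Differences in the leucine arm ran from -0.10 to 0.33 on the log2 scale. Ivd, isovaleryl-CoA dehydrogenase (chromosome 2, 118862000 to 118881357), stood at 240, 257.3 and 190.8 CPM in wild type and at 176.1, 216.4 and 250.5 CPM in knockout, with a log2 fold change of -0.10 (SE 0.27, 95% interval -0.72 to 0.53, adjusted p = 0.869, edgeR). The genotypes were interleaved, and the difference was -0.45 in the replicate 1 libraries and 0.071 within replicates 2 and 3. With genotype only it was 0.024 without knockout replicate 1, -0.0072 without wild-type replicate 2 and -0.22 without replicate 3 of either genotype. Auh, which hydrates 3-methylglutaconyl-CoA and also binds AU-rich RNA (chromosome 13, 52835110 to 52929677), stood at 81.3, 111.8 and 94.6 CPM in wild type and at 98.8, 157.7 and 104.4 CPM in knockout, a log2 fold change of 0.33 (SE 0.29, 95% interval -0.34 to 0.99, adjusted p = 0.652, edgeR). Replicate 2 was the highest library of each genotype. Without knockout replicate 2 the Auh value was 0.084, and without wild-type replicate 1 it was 0.22.

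Mccc1 and Mccc2 encode the biotin-carrying and carboxyl-transferring subunits of 3-methylcrotonyl-CoA carboxylase. Mccc1 (chromosome 3, 35959306 to 36000678) stood at 176.2, 157.2 and 141.2 CPM in wild type and at 189.3, 223.8 and 166.9 CPM in knockout, with a log2 fold change of 0.29 (SE 0.25, 95% interval -0.30 to 0.87, adjusted p = 0.651, edgeR). Mccc2 (chromosome 13, 99948532 to 100015639) stood at 97.1, 70.9 and 77.4 CPM in wild type and at 83.5, 105.1 and 85.9 CPM in knockout, a log2 fold change of 0.16 (SE 0.25, 95% interval -0.42 to 0.75, adjusted p = 0.772, edgeR). For both genes knockout replicate 2 was the highest of the 6 libraries, and the genotypes overlapped. Without that library Mccc1 was at 0.17 and Mccc2 at 0.049, and Mccc2 was at 0.068 without wild-type replicate 2 and 0.30 without wild-type replicate 1. Exons of Mccc1 overlap the antisense RNA Mccc1os, which stood at 0.484 to 1.03 CPM.

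The promoters of these neighbouring steps of the leucine arm are shown because Ivd, Mccc1 and Mccc2 were among the members that hold CCAAT, the sequence bound by the general promoter factor NF-Y. Sequences are from RefSeq (GRCm38.p6, the assembly of mm10), 5′ to 3′ on the strand of the gene. They start 150 bases before the transcription start and end before any annotated exon. Capitals mark CCAAT on either strand, which reads ATTGG on the other strand, and CACGTG, the E-box.
Ivd (chr2:118861844-118861953, plus strand): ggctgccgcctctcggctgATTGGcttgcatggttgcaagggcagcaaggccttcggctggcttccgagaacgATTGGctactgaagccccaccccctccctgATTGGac
Mccc1 (chr3:36000712-36000828, minus strand): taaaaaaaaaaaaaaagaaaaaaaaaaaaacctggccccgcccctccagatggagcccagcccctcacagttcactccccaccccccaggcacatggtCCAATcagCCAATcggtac
Mccc2 (chr13:100015640-100015789, minus strand): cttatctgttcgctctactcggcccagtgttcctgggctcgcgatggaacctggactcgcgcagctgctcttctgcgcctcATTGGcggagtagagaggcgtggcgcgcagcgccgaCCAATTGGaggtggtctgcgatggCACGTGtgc
The Ivd window held CCAAT 3 times, the Mccc1 window 2 times and the Mccc2 window 3 times, counting both orders of an overlapping pair in Mccc2. Over the 250 bases before the start, 5 of the 9 members with a promoter in the table held CCAAT on either strand (Ivd, Mccc1, Mccc2, Bckdhb and Hibadh), against 37.5% of all genes and 33.8% of all promoters. CACGTG was in 1 of 9 (6.86% of all genes and 6.02% of all promoters), Mccc2. AGGTCA, the core sequence bound by nuclear receptors such as PPARG, was in 1 of 9 (15.8% of all genes and 14% of all promoters), Bckdhb. A match is a description of these letters only. Dbt was not matched.

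The valine arm held the member with the smallest p. Hibch, 3-hydroxyisobutyryl-CoA hydrolase (chromosome 1, 52845046 to 52920860, plus strand), stood at 157.6, 114 and 170.6 CPM in wild type and at 91.1, 75.5 and 65.4 CPM in knockout. Every knockout library lay below every wild-type library. The means of 147.4 ± 29.7 and 77.3 ± 13 CPM differed by 1.91-fold, with a log2 fold change of -0.93 (SE 0.28, 95% interval -1.57 to -0.29, unadjusted p = 0.0101, adjusted p = 0.418, edgeR). With the batch term the estimate was -0.94 (SE 0.22, adjusted p = 0.102, edgeR). It was -0.79 between the replicate 1 libraries and -0.99 within replicates 2 and 3. The authors' deposited adjusted p, also 0.102, rests on the same counts and a matching fit, so it is not separate support. Over 22 other settings the unadjusted p of Hibch was under 0.05 in all 22. At that cut lay 8.63% of all genes with genotype only and 24.5% with the batch term. The settings reuse the same 6 libraries, so they are not repeated support. Over them the adjusted p of Hibch ran from 0.0647 to 0.997 and its log2 fold change from -1.09 to -0.49. With length and GC offsets the fold change was -0.50 (SE 0.19, adjusted p = 0.312, edgeR).

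Hibadh, 3-hydroxyisobutyrate dehydrogenase, acts on the product of Hibch (chromosome 6, 52546230 to 52640300). It stood at 251.6, 293.4 and 290.4 CPM in wild type and at 214.9, 295.5 and 228.8 CPM in knockout, with knockout replicate 2 the highest of the 6 libraries. Its log2 fold change was -0.18 (SE 0.26, 95% interval -0.78 to 0.43, adjusted p = 0.761, edgeR), and 0.024 with length and GC offsets. It was -0.091 without knockout replicate 1 and -0.33 without knockout replicate 2. The difference between Hibch and Hibadh was tested within libraries, as the ratio of their RPKM values. That ratio stood at 0.638, 0.395 and 0.598 in wild type and at 0.431, 0.26 and 0.291 in knockout. Wild-type replicate 2 lay below knockout replicate 1, and the log2 difference of -0.74 had p = 0.2 (two-sided exact permutation test over the 3 and 3 libraries, adjusted p = 0.48 over 8 ratios).

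**Figure D2:**
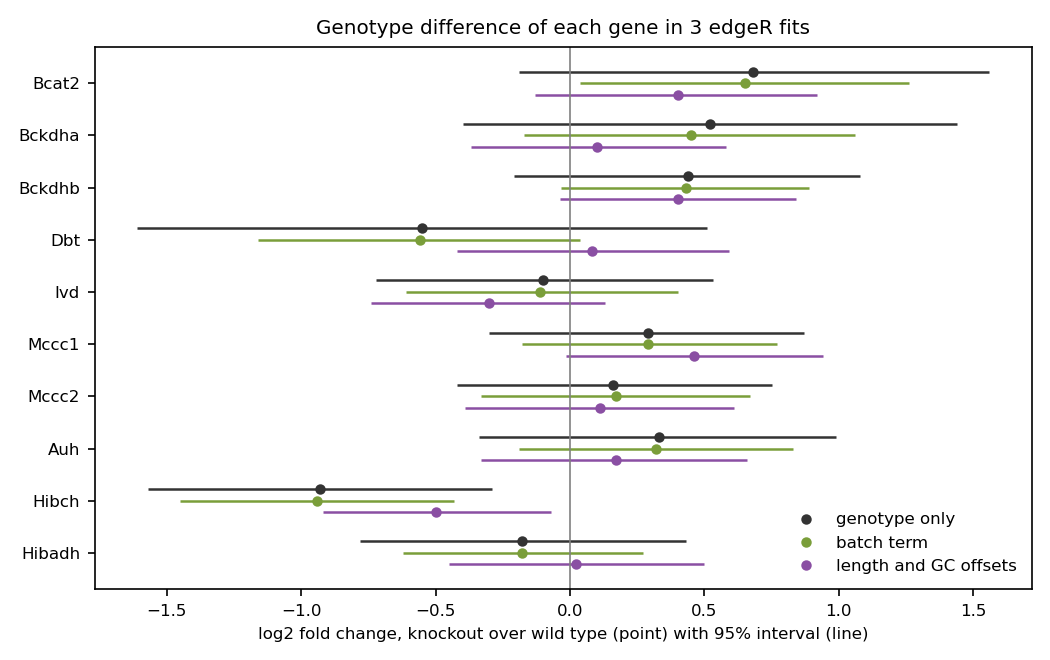
Log2 fold change of each member, knockout over wild type (horizontal axis), as a point with its 95% interval as a line, in the edgeR fits with genotype only (black), with the batch term (green) and with length and GC offsets (purple). Dbt moves from -0.55 to 0.081 with the offsets, while the Hibch interval stays below 0 in all 3 fits.

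Per length of exon, the members spanned a wide range of levels. In wild type Hibadh had the highest mean at 160.6 ± 13.5 RPKM, followed by Bckdha at 142.3 ± 43.8, Ivd at 111 ± 16.7, Bcat2 at 91.3 ± 32.1 and Hibch at 86.5 ± 17.4 RPKM. Below them stood Auh at 71.3 ± 11.4, Bckdhb at 66.1 ± 9.45, Mccc1 at 53.1 ± 5.88, Mccc2 at 38.5 ± 6.43 and Dbt at 18.8 ± 8.76 RPKM. Neighbours in this order overlapped in range apart from Mccc1 against Mccc2 and Mccc2 against Dbt.

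In knockout the order by mean RPKM was Bckdha (204.1 ± 81.8), Bcat2 (146.5 ± 49.7), Hibadh (142.1 ± 24.9), Ivd (103.7 ± 18.0), Auh (89.5 ± 24.2) and Bckdhb (89.4 ± 21.8). Mccc1 (64.8 ± 9.61), Hibch (45.4 ± 7.61), Mccc2 (43.1 ± 5.57) and Dbt (12.9 ± 5.99 RPKM) followed. The neighbours without overlap in range were Hibadh against Ivd, Mccc1 against Hibch and Mccc2 against Dbt. Hibch ranked 4, 7 and 3 among the members in wild-type replicates 1 to 3 and 8, 9 and 9 in knockout replicates 1 to 3. Dbt was the lowest of the 10 in all 6 libraries.

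Ratios between genes of one complex do not depend on how libraries are scaled. Mccc1 over Mccc2 varied little, at 1.29, 1.58 and 1.3 in wild type and 1.62, 1.52 and 1.38 in knockout (log2 difference 0.12, two-sided exact permutation p = 0.3). Bckdha over Bckdhb stood at 2.1, 2.74 and 1.62 in wild type and at 1.59, 1.98 and 3.29 in knockout (0.051, exact permutation p = 1). Of the ratios between genes of one complex, Dbt over Bckdha varied most within a genotype. It stood at 0.239, 0.0535 and 0.155 in wild type and 0.172, 0.0475 and 0.0302 in knockout (exact permutation p = 0.3), with log2 differences of -0.47 in the replicate 1 libraries and -1.27 within replicates 2 and 3. Wild-type replicate 2 and knockout replicates 2 and 3 were the low libraries for that ratio. Its difference was -0.47 without knockout replicate 3, -0.54 without wild-type replicate 1, -1.62 without wild-type replicate 2 and -1.73 without knockout replicate 1. Dbt over Bckdhb stood at 0.503, 0.147 and 0.251 in wild type and at 0.275, 0.0941 and 0.0992 in knockout. The log2 difference of Dbt over Bckdhb was -0.95 (exact permutation p = 0.3), with -0.87 in the replicate 1 libraries and -0.99 within replicates 2 and 3. Bckdha over Bckdhb changed sign with 1 library left out, from -0.24 without knockout replicate 3 to 0.28 without knockout replicate 1. With 3 libraries against 3 the smallest p this test allows is 0.1, so the design cannot reach 0.05, and over the 8 ratios the adjusted p ran from 0.48 to 1.

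The enzymes that switch BCKDH are its kinase, Bckdk, which turns it off, and its phosphatase, Ppm1k, which turns it on. Bckdk stood at 71.0, 111.5 and 84.7 CPM in wild type and at 62.7, 134.9 and 190.7 CPM in knockout, with a log2 fold change of 0.54 (SE 0.42, adjusted p = 0.627, edgeR). Ppm1k stood at 18.4, 10.2 and 15.4 CPM in wild type and at 15.5, 6.61 and 4.45 CPM in knockout, a log2 fold change of -0.73 (SE 0.50, adjusted p = 0.615, edgeR). Without knockout replicate 3 Bckdk was at 0.15 and Ppm1k at -0.41, and without knockout replicate 1 they were at 0.86 and -1.40. With the batch term and all libraries Bckdk was at 0.43 (adjusted p = 0.324, edgeR) and Ppm1k at -0.89 (adjusted p = 0.177, edgeR). Their ratio in RPKM was 7.5, 21.2 and 10.7 in wild type and 7.86, 39.7 and 83.4 in knockout. Knockout replicate 1 lay inside the wild-type range and the other 2 knockout libraries above it, with a log2 difference of 1.31 (two-sided exact permutation p = 0.3), 0.068 in the replicate 1 libraries and 1.93 within replicates 2 and 3. That difference was 0.57 without knockout replicate 3 and 2.27 without knockout replicate 1. Bckdk over Bckdha stayed between 0.193 and 0.252 in all 6 libraries (-0.047, exact permutation p = 0.7). The cytosolic transaminase gene Bcat1 was scarce, and Bcat2 over Bcat1 stood at 215 to 243 in wild type and 158 to 288 in knockout (-0.23, exact permutation p = 0.4).

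**Figure D3:**
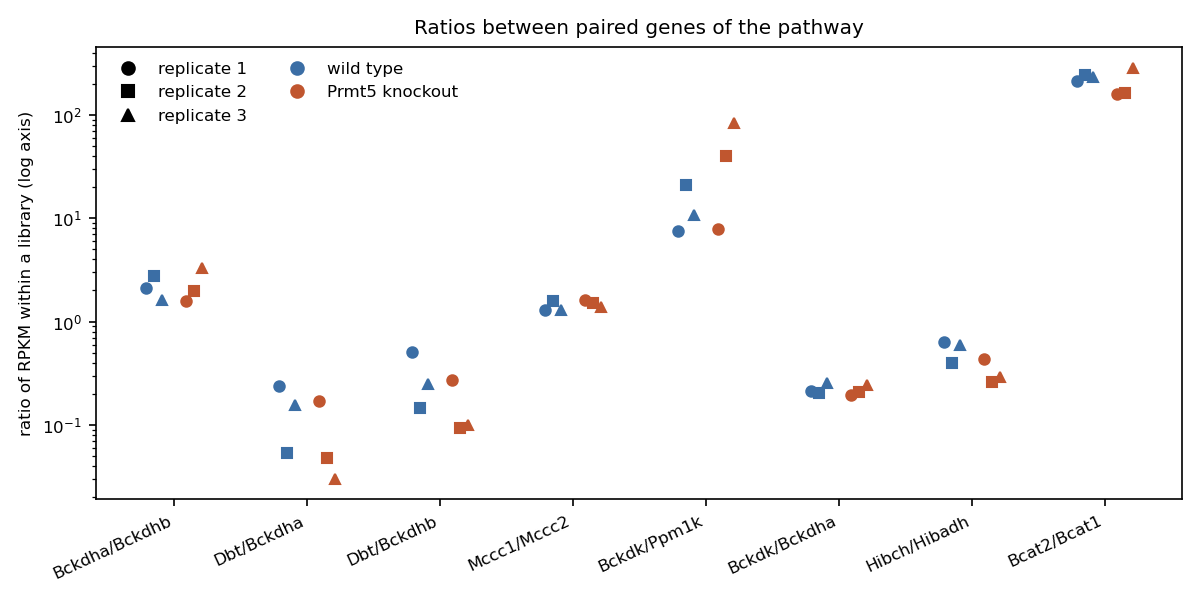
Ratio of RPKM between 2 genes within each library (vertical log axis) for 8 pairs, with wild type in blue, knockout in orange and a marker shape for each replicate number. Bckdk over Ppm1k is 7.86 in knockout replicate 1 and 39.7 and 83.4 in knockout replicates 2 and 3, and no pair separates the genotypes without overlap.

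Other genes of the pathway, 25 in all, went in both directions. In the genotype-only fit 14 lay above 0 and 11 below, with a median of 0.11 (-0.016 over all genes). None passed over all genes in edgeR with genotype only or with the batch term, or in DESeq2 or limma-voom. At an unadjusted p under 0.05 the genotype-only fit held 2 higher (5.26% of all genes) and 1 lower (3.37%), and the batch-term fit 6 higher (12.1%) and 3 lower (12.4%). Among the 8 with the smallest p, 2 that act beside Hibch and on isoleucine stood lower in knockout. Acadsb, which oxidises the isoleucine product 2-methylbutyryl-CoA, stood at 335.6, 201.8 and 307.1 CPM in wild type and at 205.2, 119.2 and 120 CPM in knockout, a log2 fold change of -0.93 (SE 0.34, adjusted p = 0.533, edgeR). Aldh6a1, methylmalonate semialdehyde dehydrogenase, which follows Hibadh in valine breakdown, stood at 592.8, 328.4 and 491.5 CPM in wild type and at 388.4, 193.1 and 140 CPM in knockout, a log2 fold change of -0.97 (SE 0.44, adjusted p = 0.573, edgeR). For each, the highest knockout library lay above the lowest wild-type library. With the batch term Acadsb was at -0.96 (SE 0.23, adjusted p = 0.102, edgeR) and Aldh6a1 at -1.07 (SE 0.27, adjusted p = 0.108, edgeR). With length and GC offsets these values were -0.29 and -0.46. With genotype only Aldh6a1 was at -1.50 without knockout replicate 1.

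The other 6 of the 8 had higher means in knockout. Etfb encodes a subunit of the electron acceptor that serves Ivd, Acadsb and Acad8. It stood at 274.4, 549.8 and 374 CPM in wild type and at 441.3, 1152 and 997 CPM in knockout, a log2 fold change of 1.11 (SE 0.45, adjusted p = 0.561, edgeR). With the batch term Etfb was at 1.04 (SE 0.24, adjusted p = 0.099, edgeR). The gene of its partner subunit, Etfa, outside those 8, went the other way. Etfa stood at 345.3, 223.8 and 339.8 CPM in wild type and at 308.7, 191.3 and 105.2 CPM in knockout (-0.59, SE 0.42, adjusted p = 0.617, edgeR). Acad8, isobutyryl-CoA dehydrogenase of the valine arm, stood at 44.7, 53.7 and 50.6 CPM in wild type and at 61.0, 80.4 and 83.1 CPM in knockout, a log2 fold change of 0.59 (SE 0.25, adjusted p = 0.572, edgeR). Its genotypes did not overlap. Bcat1 stood at 2.53 to 4.28 and 4.89 to 7.34 CPM (0.89) and Mmaa, a cobalamin handling gene of the propionate route, at 19.9 to 27.5 and 31.2 to 38.5 CPM (0.47), also with no overlap. In all, 3 of the 25 genes had every knockout library above wild type (8.32% of all genes) and 1, Mmab, had every one below (6.2%). Btd, which recycles biotin (0.69), and Slc25a44, the mitochondrial carrier of branched-chain amino acids (0.48), overlapped between genotypes. With length and GC offsets Etfb was at 0.68, Acad8 at 1.10, Bcat1 at 1.27, Mmaa at 0.81, Btd at 0.47 and Slc25a44 at 0.41, none of them called. Slc25a44 was at 0.31 without knockout replicate 2. Mmaa was the single gene of the 25 called by any fit here, with length and GC offsets and the batch term together (0.80, SE 0.16, adjusted p = 0.035, edgeR, where 3.13% of all genes were called), and its adjusted p ran from 0.035 to 0.997 over 22 other settings.

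**Figure D4:**
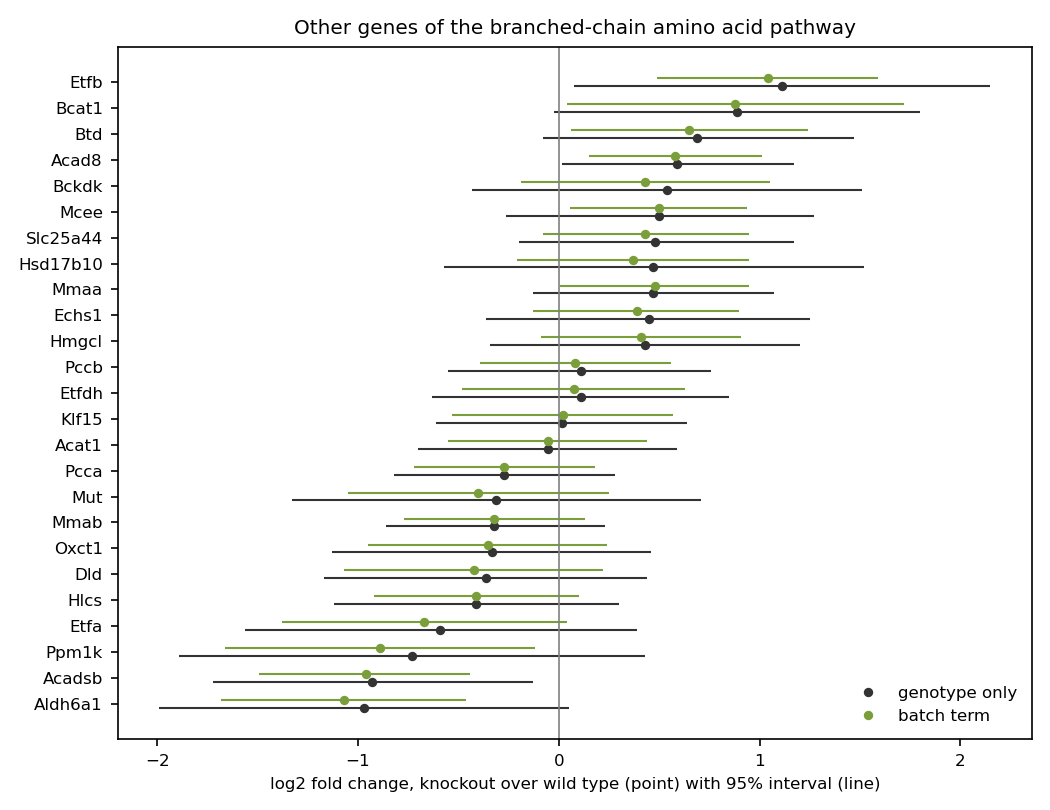
Log2 fold change, knockout over wild type (horizontal axis), of 25 further genes of the pathway, as points with 95% intervals as lines, in the edgeR fits with genotype only (black) and with the batch term (green). The values run from -0.97 for Aldh6a1 to 1.11 for Etfb with genotype only.

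Members with GC-rich exons tended to have the higher log2 fold changes, though not throughout: Ivd, at 54.1% GC, lay at -0.10 and moved to -0.30 with the offsets. Exonic GC content ran from 42% in Dbt and 42.7% in Hibch to 56.4% in Bcat2 and 59.6% in Bckdha, with a median of 50.3% over the members and 50.7% over all genes. Across the 10 genes, which share the same libraries and are not independent replicates, the log2 fold change and GC content had a Pearson correlation of 0.82, and 0.44 across 13767 genes. After offsets that remove each library's trend with length and GC content these were 0.31 and 0.00. With the offsets 8 of 10 members lay above 0 (55.3% of all genes), with a median of 0.11 (0.059 over all genes), and the members with the 3 highest values were Mccc1 (0.46), Bckdhb (0.40) and Bcat2 (0.40), none of them called. Whether base composition had a part in the genotype difference of Hibch, Bcat2 or Bckdha was not tested beyond these offsets.

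**Figure D5:**
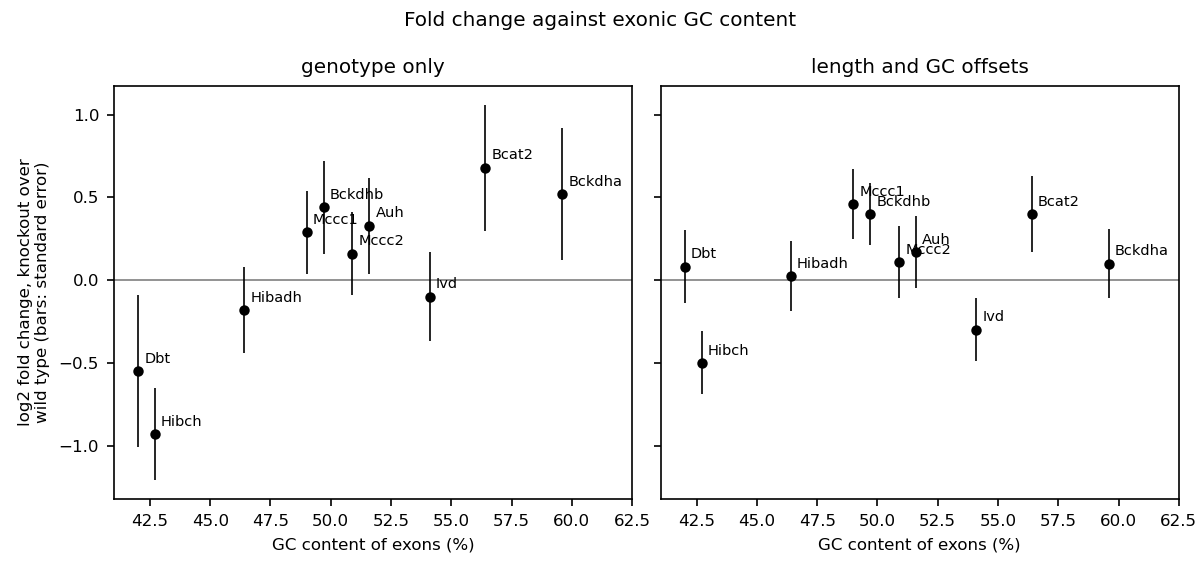
Log2 fold change of each member, knockout over wild type (vertical axis, bars are standard errors), against the GC content of its exons in percent (horizontal axis), with genotype only (left) and with length and GC offsets (right). Dbt and Hibch, at 42% and 42.7% GC, are the lowest points on the left, and on the right Dbt lies at 0.081 and Hibch at -0.50.

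Members also differed between libraries of one genotype. Bcat2 stood at 159.8 to 210.6 CPM in wild-type replicates 1 and 3 and knockout replicate 1, and at 282.7 to 429.7 CPM in the other 3 libraries. Bckdha stood at 201.9 to 208.6 against 341.8 to 484.4 CPM and Auh at 81.3 to 98.8 against 104.4 to 157.7 CPM in the same sets, while Dbt stood at 60.2 to 91.6 against 27.2 to 35.2 CPM. These are the 3 libraries with high Xist and the 3 with low Xist, which are not groups of the study. The sets did not overlap for 4 of 10 members, where 51.4% of all genes had no overlap, so this count is no result about the members. The set with high Bcat2 and Bckdha holds 2 of the 3 knockout libraries.

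Averaged over the 10 members, the centred log2 CPM profile was nearly flat, at -0.014, 0.0031 and -0.077 in wild-type replicates 1 to 3 and -0.12, 0.19 and 0.013 in knockout replicates 1 to 3. Among 9526 other genes with a mean of at least 10 CPM, the 5 nearest to it over the 6 libraries were Eif2ak1, Tollip, Ercc3, Mapre2 and Endod1, at root mean square distances of 0.0333 to 0.0493 on the log2 scale. The members themselves lay farther from their own mean, from 0.149 for Mccc2 to 0.667 for Dbt.

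Markers of other cell types had uneven levels between libraries, and 0 were called with genotype only (0% of all genes). With the batch term 1 of 8 brown and beige fat markers was called and 0 on the other lists given here (0.504% of all genes). Summed brown and beige fat markers stood at 151.4 to 370.9 CPM in wild type and 633 to 945.8 CPM in knockout, with log2 fold changes above 0 for 8 of 8 (7 of 8 with the batch term). Summed progenitor and fibroblast markers stood at 2052 to 3002 and 1351 to 1369 CPM, with 0 of 6 above 0 (1 of 6 with the batch term). Summed smooth muscle markers stood at 747.6 to 1261 and 1417 to 2718 CPM, with 3 of 3 above 0. For these 3 lists the sums of the genotypes did not overlap, though a sum rests mostly on its most abundant genes. Gene by gene, 5 of 8 brown and beige fat, 3 of 6 progenitor and fibroblast and 1 of 3 smooth muscle markers had no overlap (14.5% of all genes).

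The sums overlapped for the remaining lists. Mature adipocyte markers summed to 40677 to 56818 CPM in wild type and 29562 to 45210 CPM in knockout, with 5 of 10 above 0. Skeletal muscle, which also breaks down these amino acids, had sums of 143.5 to 2081 and 322.8 to 1713 CPM, with 1 of 5 above 0 and Myh4 at 0 in wild-type replicate 2. Macrophage markers summed to 959.1 to 1716 and 1347 to 2142 CPM (4 of 6 above 0), and endothelial markers to 467.9 to 839.4 and 460.8 to 642.6 CPM (1 of 5). T and B cell markers summed to 15.9 to 27.7 and 19.5 to 56.3 CPM (5 of 7), and mesothelial markers to 215 to 328.8 and 71.9 to 416.1 CPM (1 of 5). The part of these cell types in the values of Hibch, Bcat2 and the other members was not tested.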

How the data were processed

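RNA was extracted with Trizol, polyA-enriched and sequenced on an Illumina HiSeq, per the labels' protocols. TopHat2, HTSeq 0.6.1 and mm10 are named in the submitters' processing notes. The sources used here give neither strand setting nor annotation. The authors deposited raw counts per gene and library with exonic lengths, log2 RPKM, and their own log2 fold change, p-value and adjusted p-value per gene. The counts were tested with edgeR 4.0.16 (R 4.3.3): TMM, filterByExpr (which removed 0 genes), glmQLFit and glmQLFTest with genotype only, with Benjamini-Hochberg adjustment over 14291 genes. A standard error is the fold change divided by the root of F. The batch-term fit differed from the deposited log2 fold changes by at most 8.33e-15. GC content was read from GENCODE M21 transcripts within the deposited exons (13767 genes, 96.3%), and loess offsets had a span of 0.5. DESeq2 1.42.0 and limma-voom (limma 3.58.1) were alternatives. Only the edgeR fits with genotype only and with the batch term were tested on simulated data. Those data had a lower dispersion than these libraries. Same-numbered libraries deviated together with correlations of 0.638, 0.533 and -0.102, so the numbers were not taken to pair them. Members and lists were chosen with earlier results of these data known. Genes named are the members, Prmt5, the genes of the ratios, the 8 other pathway genes with the smallest p, and the 5 nearest profiles. Mmab, Etfa, Dld, the regulators, Pdha1, Pdhb, Dlat, B3gnt8, the overlapping genes and the markers named were chosen after their values were seen. The motifs were searched on both strands. For Mut the older symbol was matched. Scarce genes such as Bcat1 and Ppm1k rest on fewer reads and are less precise than the members.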

Additional observations from a re-analysis of the deposited data

How the results depend on the processing

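Over 22 other settings, 0 of 220 member values were called, and 212 kept the direction of the fit with genotype only, with 7 of 10 members on one side throughout. The reversals were those of Dbt (0.081, and 0.11 with the batch term) and Hibadh (0.024, and 0.01 with the batch term) under length and GC offsets. Ivd was 0.035 in replicates 2 and 3 alone, 0.024 without knockout replicate 1, and -0.22 to 0.024 over all libraries left out in turn, and 0.059 and 0.037 in batch-term fits without replicate 1 of wild type or knockout. The cause was not tested. Leaving out a library gave member medians of 0.067 to 0.26, or 0.08 to 0.35 where the batch term was kept. The median of the 25 other genes moved from 0.11 to -0.081 in replicates 2 and 3 alone. With a library left out it ran from -0.089, without knockout replicate 1, to 0.17, and with the batch term from -0.078 (knockout replicate 1 left out) to 0.13, with -0.057 without wild-type replicate 1. Length and GC offsets with the batch term called 1 of them, Mmaa, and there Prmt5 was -1.17 and called (adjusted p = 0.0171, edgeR), as it was without wild-type replicate 3 with the batch term (-1.30, adjusted p = 0.0236, edgeR). Leaving out a library gave -1.31 to -0.84 for Prmt5, or -1.30 to -0.97 where the batch term was kept. With the replicate number as a block, 0 members were called, 6 lay above 0 with a median of 0.23, 0 other pathway genes were called (median 0.083), and Prmt5 was -1.10. The block moved the calls over all genes from 0 to 57. The members had 549 to 9796 counts in a library.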

Other observations

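Pyruvate dehydrogenase is built like BCKDH and shares its Dld subunit. Of 5 listed genes of this complex and its control, 0 were called in edgeR with genotype only (0% of all genes). At an unadjusted p under 0.05 that fit held 1, Pdha1 (8.63% of all genes). Of the 5, 3 lay above 0 (49% of all genes), and 4 with length and GC offsets (55.3%). Pdha1, the counterpart of Bckdha, had 341.8, 155.3 and 331.5 CPM across wild-type replicates 1 to 3, against 210.2, 101.6 and 96.8 CPM across knockout replicates 1 to 3 (log2 fold change -1.02, adjusted p = 0.572, edgeR). Knockout replicate 1 lay above wild-type replicate 2. Pdhb, the counterpart of Bckdhb, stood at 224.6 to 422 and 316.3 to 433.1 CPM (0.12), and Dlat, the counterpart of Dbt, at 127.3 to 151.4 and 97.6 to 167 CPM (-0.19). Dld stood at 155.4 to 259.5 and 115.5 to 229.3 CPM (-0.36, adjusted p = 0.668, edgeR). Without knockout replicate 3 it was at -0.17, without knockout replicate 1 at -0.71, and with length and GC offsets at 0.22. Of 15 genes of the tricarboxylic acid cycle, 13 lay above 0 (49% of all genes) with a median of 0.38, and 0 were called in edgeR with genotype only. At an unadjusted p under 0.05 that fit held 0 (8.63% of all genes), and the batch-term fit 6 higher (12.1%). The 4 listed regulators went in both directions, with a median of 0.27, and of -0.041 with the batch term. Esrra, a nuclear receptor that drives mitochondrial genes, stood at 47.4, 63.4 and 53.8 CPM in wild type and at 77.8, 93.1 and 119 CPM in knockout, with no overlap (0.82, unadjusted p = 0.0172, adjusted p = 0.485, edgeR, where 14.5% of all genes had no overlap). Pparg, the nuclear receptor of adipocyte differentiation, stood at 176.7 to 214 CPM in wild type and 91.6 to 148.1 CPM in knockout, also with no overlap (-0.59, adjusted p = 0.582, edgeR). Klf15, an activator of amino acid breakdown genes, overlapped (0.02), as did Ppargc1a (0.52).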
